A study of Mus musculus with 4 samples.

Results

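The genes described here are 9 genes of GABAergic interneurons, Gad1, Gad2, Dlx1, Dlx2, Dlx5, Dlx6, Lhx6, Sst and Npy, read in the dorsal cortex of E18.5 mouse embryos, shortly before birth. They were chosen by name, as the features of the array that carry one of these symbols alone. Each has 1 such feature, and all 9 passed the filter on dim genes, out of 13956 genes tested and 19938 genes with a single symbol. RNA was hybridised to 4 single-colour whole-transcript arrays in 2 groups. The 2 mutants carry 2 floxed copies of Mek1 (Mek1fl/fl), lack Mek2 (Mek2-/-) and bear the NestinCre transgene. Its Nestin enhancer drives Cre recombinase in dividing progenitors throughout the nervous system, so that the cells they give rise to are recombined too. The 2 controls have a wild-type beside a floxed Mek1 allele (Mek1fl/wt) and also lack Mek2, and the labels name no Cre for them. In the submitters' design summary the controls appear as wild type, in conflict with these genotype labels, which are followed here. By the labels both groups are without Mek2 and differ in Mek1, and an effect of NestinCre itself cannot be told apart from that of Mek1 loss. Values are log2 expression as the authors normalized it with RMA, and they do not allow the level of one gene to be set against that of another.

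Interneurons of the cortex use GABA as their inhibitory transmitter. They are not born in the dorsal cortex but in the ganglionic eminences below it, and reach it by migrating through the embryonic forebrain. Transcription factors of the Dlx family are made in the progenitors and young neurons of the eminences, and Lhx6 marks the cells that leave the medial eminence. Gad1 and Gad2 make GABA from glutamate, and the neuropeptides somatostatin and neuropeptide Y mark interneuron subtypes that begin to appear before birth. MEK1 and MEK2 are the kinases that activate ERK1 and ERK2, and NestinCre acts in the ganglionic eminences as well as in the cortex, so that Mek1 can be lost from the interneurons and from the tissue they enter alike.

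None of the 9 genes passed the test between mutants and controls. In the limma fit over all genes (adjusted p under 0.05), 1.01% of the 13956 genes were called lower in the mutants and 0.0143% higher. The differences of the 9 genes, mutant minus control on the log2 scale, ran from -0.43 for Sst to 0.30 for Npy, with adjusted p between 0.324 and 0.972. Their median was -0.06, beside 0.01 over all genes tested, and 5 had a lower and 4 a higher mean in the mutants. The groups did not overlap for 4 of the 9 (2 with the mutants lower and 2 with the mutants higher), beside 44.3% of all genes tested (21.4% lower and 22.8% higher). The largest contrast lay not between the groups but between the 2 mutant arrays, in Sst. In bulk tissue, fewer interneurons and less of a transcript per interneuron cannot be told apart.

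**Figure D1:**
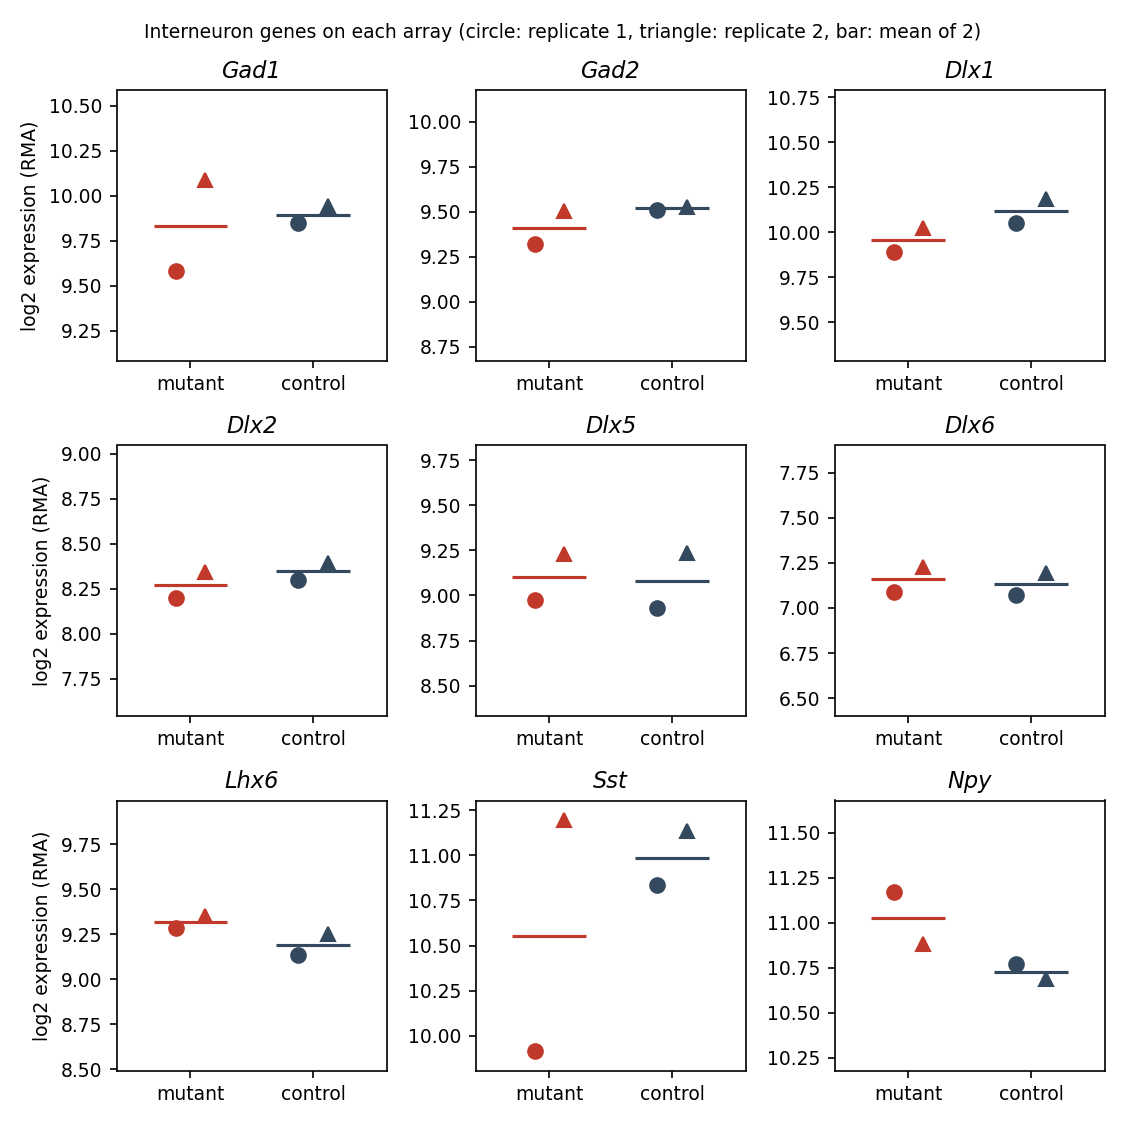
Log2 expression (RMA) of each of the 9 genes on the 2 mutant arrays and the 2 control arrays, with circles for replicate 1, triangles for replicate 2 and bars for the mean of 2. Every panel spans the same height of 1.5 log2 units. Sst on mutant 1, at 9.91, stands apart from the other 3 arrays, which lie between 10.83 and 11.20.

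The arrays themselves were close. The root mean square difference over the genes tested was 0.191 between the 2 mutants and 0.149 between the 2 controls. The excitatory cortical marker Neurod6, at 12.11 and 12.04 in mutants and 12.05 and 12.02 in controls, was high on every array. Tbr1, at 11.14 and 11.07 in mutants and 10.97 and 11.02 in controls, was high on every array too. Both were named as markers of the labelled tissue after their values were seen. Of 7 dorsal pallial genes tested, 5 had a higher and 2 a lower mean in the mutants. The 2 were Emx2, at 6.70 and 7.56 in mutants, against 7.80 and 7.86 in controls, and Eomes, at 9.10 and 9.30 in mutants, against 9.44 and 9.38 in controls. Xist, expressed from the inactive X chromosome, was at 11.89 on mutant 2 and 11.90 on control 1, and at 4.81 on mutant 1 and 5.35 on control 2. By Xist each group thus held a female and a male sample. Map2k1, the gene of MEK1, was at 8.50 and 8.73 in mutants, against 8.76 and 8.84 in controls. Map2k2, the gene of MEK2, was at 8.57 and 8.64 in mutants, against 8.57 and 8.47 in controls, on every array above the filter for dim genes (6.16). Both features could hold probes outside the deleted parts, so these values check neither deletion, and the absence of Mek2 rests on the labels. Litters and batches are not named in the labels, and the p-values measure only the spread between these samples.

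Gad1 and Gad2 encode the enzymes that make GABA, Gad1 being the main source of the transmitter in the cell body and Gad2 the form associated with synaptic vesicles. Gad1 was at 9.58 on mutant 1 and 10.09 on mutant 2, against 9.85 and 9.94 in controls. The mutants thus lay on either side of both controls. The mean was 9.83 ± 0.36 in mutants and 9.90 ± 0.07 in controls (SD, n = 2 each), a difference of -0.06 ± 0.17 (SE) with a 95% interval from -0.49 to 0.36 (limma, adjusted p = 0.930). Gad2 was at 9.32 on mutant 1 and 9.50 on mutant 2, against 9.51 and 9.53 in controls. Both mutants were below both controls, mutant 2 by very little. The Gad2 difference was -0.11 ± 0.08 (SE; limma, adjusted p = 0.625), and its interval ran from -0.31 to 0.09. A lncRNA gene, Gad1os, overlaps Gad1 in the RefSeq annotation (GRCm38.p6), so its feature may take up signal of that gene.

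The 4 Dlx genes are homeodomain transcription factors that lie in neighbouring pairs, Dlx1 next to Dlx2 on chromosome 2 and Dlx5 next to Dlx6 on chromosome 6. Dlx1 and Dlx2 act early in the eminences and are needed for interneurons to migrate and mature, and Dlx5 and Dlx6 come on after them. Dlx1 was at 9.89 on mutant 1 and 10.02 on mutant 2, against 10.05 and 10.18 in controls. Both mutants were below both controls, and the arrays of each group were 0.13 apart. The difference was -0.16 ± 0.08 (SE; limma, adjusted p = 0.461), with a 95% interval from -0.36 to 0.04. Its neighbour Dlx2 was at 8.20 and 8.34 in mutants, against 8.30 and 8.39 in controls. Here the groups overlapped, and the difference was -0.08 ± 0.08 (SE; limma, adjusted p = 0.740).

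Dlx5 and Dlx6 differed by less than their spread between arrays of a group. Dlx5 was at 8.98 and 9.23 in mutants, against 8.93 and 9.24 in controls, a difference of 0.02 ± 0.13 (SE; limma, adjusted p = 0.972). The 2 controls already stood 0.31 apart, a gap exceeded by 1.95% of genes tested. Dlx6 was at 7.09 and 7.23 in mutants, against 7.07 and 7.19 in controls, a difference of 0.03 ± 0.08 (SE; limma, adjusted p = 0.937). For this pair the group means were nearly equal, while 1 array of each group was the higher one. In the RefSeq annotation the lncRNA genes Dlx6os1 and Dlx6os2 overlap Dlx6, and Dlx1as overlaps Dlx1, so the features of these genes may take up signal of their partners. Dlx6os1 has no feature of its own among those with a single symbol.

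Lhx6, a LIM homeodomain factor, is switched on as cells of the medial eminence leave division and is needed for the somatostatin and parvalbumin interneurons that descend from them. It was at 9.29 and 9.35 in mutants, against 9.13 and 9.25 in controls. Both mutants were above both controls. The means were 9.32 ± 0.05 in mutants and 9.19 ± 0.09 in controls (SD, n = 2 each), a difference of 0.13 ± 0.07 (SE) with a 95% interval from -0.05 to 0.30 (limma, adjusted p = 0.506). Lhx6 had the smallest gap between the mutant arrays of the 9 genes, 0.07.

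Sst encodes the precursor of somatostatin, the peptide of an interneuron class that descends from Lhx6 cells. Npy encodes the precursor of neuropeptide Y, which is made by part of the somatostatin cells and by neurogliaform interneurons. They had the largest differences of the 9 genes and lay in opposite directions. Their promoters are shown for that reason, from 250 bases before to 50 bases after the start of the transcript, read 5′ to 3′ (RefSeq, GRCm38.p6). The first is chr16:23890795-23891094 on the minus strand, and the second is chr6:49822460-49822759 on the plus strand. Capitals mark the cAMP response element TGACGTCA, the palindrome bound by CREB.
Sst: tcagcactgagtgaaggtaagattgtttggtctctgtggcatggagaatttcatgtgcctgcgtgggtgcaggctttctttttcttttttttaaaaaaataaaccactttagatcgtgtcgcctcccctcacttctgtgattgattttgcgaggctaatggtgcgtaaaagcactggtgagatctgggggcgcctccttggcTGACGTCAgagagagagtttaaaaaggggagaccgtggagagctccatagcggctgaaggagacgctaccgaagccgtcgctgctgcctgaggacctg
Npy: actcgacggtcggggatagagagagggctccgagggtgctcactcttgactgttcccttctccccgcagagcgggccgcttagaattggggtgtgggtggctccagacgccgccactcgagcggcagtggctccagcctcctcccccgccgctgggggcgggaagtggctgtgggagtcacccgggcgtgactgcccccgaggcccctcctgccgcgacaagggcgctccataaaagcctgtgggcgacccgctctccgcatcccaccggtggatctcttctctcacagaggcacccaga
The element begins 48 bases before the start of Sst. A search of both strands found it in 1 of the 9 promoters of the 7 genes that the RefSeq promoter table matched (Lhx6 has 3 of them), and in 1.79% of the 32851 promoters of the table. Its first 5 letters, TGACG, which the full element contains on either strand, were found in promoters of Dlx2, Gad2 and Sst, and in 20.8% of all promoters. The AP-1 site TGACTCA was found in 1 promoter of Lhx6 and in 5.20% of all. The ETS site CCGGAAG (8.86% of all) and the homeodomain site TAATTA (5.29% of all) were in none of the 9 windows. A match describes letters in these windows and is not a measured binding site.

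Sst was at 9.91 on mutant 1 and 11.20 on mutant 2, against 10.83 on control 1 and 11.14 on control 2. Mutant 1 was the lowest array by far and mutant 2 the highest, so the groups overlapped. The mean was 10.56 ± 0.91 in mutants and 10.98 ± 0.21 in controls (SD, n = 2 each). The difference of -0.43 ± 0.41 (SE; limma, adjusted p = 0.724) corresponds to 1.35-fold less in the mutants, and its 95% interval from -1.46 to 0.60 spans both directions. The gap of 1.28 between the mutant arrays was exceeded by 0.115% of genes tested and ranked 17 among all 13956. The gap of 0.30 between the controls, with control 1 the lower, was exceeded by 2.16%.

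Npy went the other way on mutant 1. It was at 11.17 on mutant 1 and 10.88 on mutant 2, against 10.77 and 10.69 in controls. Both mutants were above both controls, as were those of 22.8% of all genes tested. The means were 11.03 ± 0.20 in mutants and 10.73 ± 0.06 in controls (SD, n = 2 each), 1.23-fold more in the mutants. The difference was 0.30 ± 0.11 (SE), with a 95% interval from 0.03 to 0.57 that is not adjusted for the number of genes. It had the smallest p of the 9 genes (unadjusted p = 0.0349 in limma) and did not pass over all genes (adjusted p = 0.324).

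The calls for the neuropeptides turned on which mutant array was used. Without mutant 2, Sst was 1.07 lower on the log2 scale (-1.07 ± 0.12, SE; limma, adjusted p = 0.00582) and Npy 0.44 higher (0.44 ± 0.07, SE; limma, adjusted p = 0.0212), and both passed. In that fit 5.24% of all genes were called lower and 1.07% higher, and the lone mutant was assumed to vary like the controls. Without mutant 1, Sst was at 0.21 ± 0.12 (SE; limma, adjusted p = 0.488) and Npy at 0.16 ± 0.07 (SE; limma, adjusted p = 0.405), and neither passed, in a fit that called 1.65% of genes lower and 0.229% higher. The sign of the Sst difference thus depended on the mutant array, while Npy was higher in each mutant than in both controls. Gad1, Dlx5 and Dlx6 also had a different sign on each mutant array, Gad1 at -0.32 on mutant 1 and 0.19 on mutant 2 from the control mean.

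**Figure D2:**
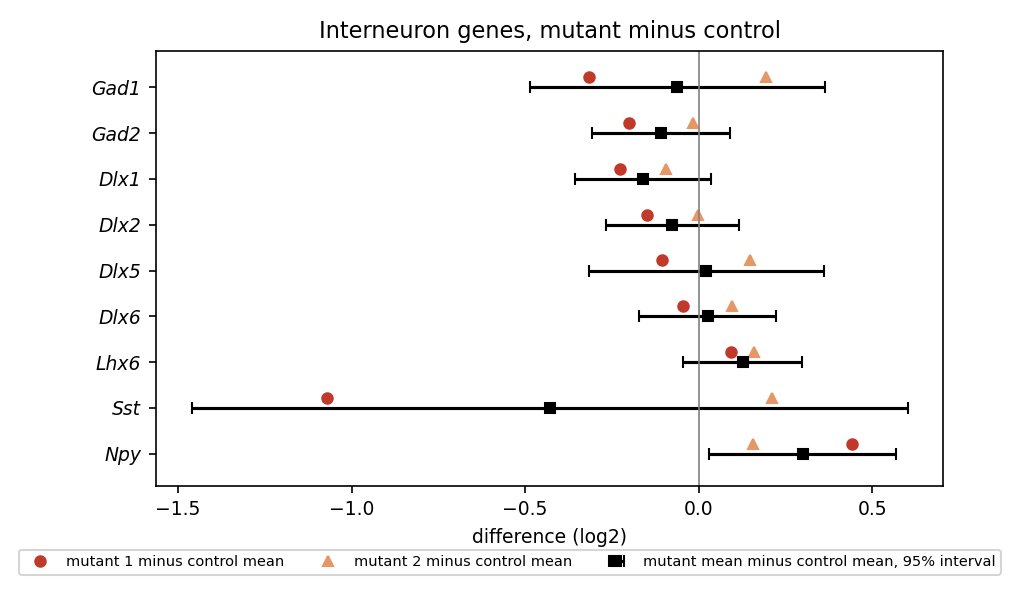
Differences from controls on the log2 scale for the 9 genes, with black squares and bars for the mutant mean minus the control mean and its 95% interval from limma, circles for mutant 1 and triangles for mutant 2, each minus the control mean. Gad1, Dlx5, Dlx6 and Sst have mutant 1 below and mutant 2 above 0, while Lhx6 and Npy have both mutants above 0.

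Most of the 9 genes shared an order of the arrays within each group, which does not follow genotype. Of the 9, 8 were lower on mutant 1 than on mutant 2, and the exception was Npy. The same 8 were lower on control 1 than on control 2, and Npy was again higher. Some of these gaps were small, such as -0.07 between the mutants for Lhx6 and -0.02 between the controls for Gad2. Over all genes tested, 64.1% were lower on mutant 1 than on mutant 2, 49.6% on control 1 than on control 2, and 35.7% on both. Averaged over the 9 genes after centring each on its own mean, the levels were -0.16 on mutant 1 and 0.12 on mutant 2, and -0.04 on control 1 and 0.08 on control 2. Sst weighs most in this mean, since mutant 1 minus mutant 2 was -1.28 for Sst and -0.51 for Gad1, the next largest gap. The median of the 9 against the control mean was -0.15 on mutant 1 and 0.15 on mutant 2, where all genes tested had medians of -0.01 and 0.02.

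Among the 2991 genes that varied over at least the same range (0.27), those most like this mean profile were Gda, Emcn, Podxl, Galnt16 and Ddn, with Pearson's r over 0.95 on the 4 arrays. With 4 arrays such values are common, and 150 of these genes passed that value. Gda, guanine deaminase, was at 7.85 and 8.54 in mutants, against 8.16 and 8.45 in controls. Ddn, the postsynaptic protein dendrin, was at 7.26 and 7.93 in mutants, against 7.56 and 7.83 in controls. Emcn was at 7.03 and 7.44 in mutants, against 7.20 and 7.38 in controls, and Podxl at 8.42 and 8.73, against 8.55 and 8.71. Galnt16 was at 8.37 and 8.78 in mutants, against 8.56 and 8.74 in controls. In all of these genes mutant 1 was the lowest and mutant 2 the highest array, as for Sst and Gad1.

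Wider lists of genes related to interneurons gave no call either, and not all of these genes are particular to interneurons. The 4 wider lists hold 48 genes that do not include the 9, of which 35 were tested, and none was called in either direction. Their median difference was -0.06, and the groups did not overlap for 16 of the 35, beside 44.3% of all genes. Among genes of GABA transport and breakdown (4 tested, median -0.22), the GABA transporter Slc6a11 had a difference of -0.33 (limma, adjusted p = 0.218) and Aldh5a1, which oxidises a breakdown product of GABA, one of -0.26 (limma, adjusted p = 0.234). Slc6a11 is also known from astrocytes. The vesicular GABA transporter Slc32a1, named after its value was seen, was at 8.53 and 8.74 in mutants, against 8.56 and 8.64 in controls.

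Among 10 interneuron transcription factors tested, 4 had a lower and 6 a higher mean in the mutants (median 0.05). Lhx8, of cholinergic and medial eminence neurons, had a difference of 0.23 (limma, adjusted p = 0.337), and Prox1, of interneurons of the caudal eminence and of dentate granule cells, one of -0.49 (limma, adjusted p = 0.498). Among 10 subtype genes (median -0.04), the peptide gene Cck had a difference of -0.24 (limma, adjusted p = 0.196) and Reln, the secreted protein reelin, one of -0.17 (limma, adjusted p = 0.489). Another 6 subtype genes, Pvalb, Vip, Crh, Crhbp, Tac1 and Lamp5, had means under the level of the filter (6.16) and were not tested. Of these, Tac1 was low on mutant 1 as Sst was, at 4.53 and 5.90 in mutants, against 5.93 and 6.49 in controls. It was over the level of the filter on control 2 only. Among 11 migration genes (median -0.14), Nrg3, a neuregulin ligand, had a difference of 0.16 (limma, adjusted p = 0.302). Cxcr4, the chemokine receptor that guides migrating interneurons, was at 11.28 and 11.31 in mutants, against 11.44 and 11.49 in controls, a difference of -0.17 (limma, adjusted p = 0.308).

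Within these lists a few genes repeated the pattern of Sst, and they were chosen after their values were seen. Of the 35 genes tested, 5 were lower on mutant 1 than on mutant 2 by at least 0.5, a gap shown by 0.953% of all genes. Nr2f2 (COUP-TFII), a nuclear receptor of caudal eminence interneurons, was at 9.15 on mutant 1 and 10.69 on mutant 2, against 10.45 and 10.69 in controls. Nrp2, a semaphorin receptor, was at 8.95 and 10.42 in mutants, against 10.29 and 10.32 in controls. The calcium-binding proteins calbindin and calretinin followed, Calb1 at 7.66 and 8.95 in mutants, against 8.72 and 9.06 in controls, and Calb2 at 7.53 and 8.54 in mutants, against 8.25 and 8.46 in controls. The fifth was Prox1, at 7.07 and 7.87 in mutants, against 7.88 and 8.04 in controls. In each of them mutant 1 was the lowest array, and mutant 2 lay within 0.20 of the control mean.

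**Figure D3:**
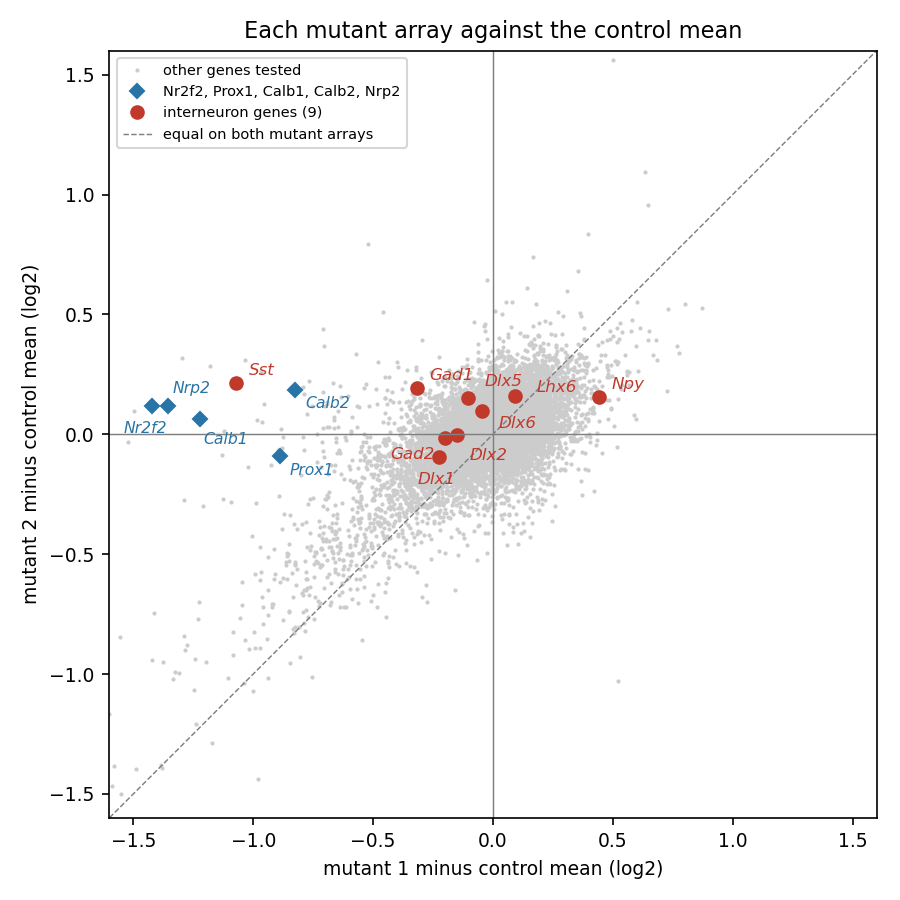
Each gene tested, placed by its difference from the control mean on mutant 1 (x axis) and on mutant 2 (y axis), in log2 units, with the 9 interneuron genes as red circles and 5 genes of the wider lists, chosen after their values were seen, as blue diamonds. Sst lies with Nr2f2, Nrp2, Calb1, Calb2 and Prox1 far to the left and near 0 on the y axis, while the other 8 interneuron genes lie between -0.32 and 0.44 on the x axis. In all, 13 genes fall outside the axes.

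Several of these genes are also expressed by neurons and progenitors of the hippocampus and of the medial and caudal cortex, so a list of such genes was read beside them. It was drawn up after low values on mutant 1 had been seen, and it holds Nr2f2, Nrp2 and Prox1 from the paragraph above, so its level on that array is a description that its choice partly fixes. Of its 14 genes tested, 8 were lower on mutant 1 than on mutant 2 by at least 0.5, and their median against the control mean was -0.80 on mutant 1 and -0.08 on mutant 2. Without those 3 genes, 5 of 11 had such a gap, and the medians were -0.41 on mutant 1 and -0.08 on mutant 2. Leaving them out does not free the list from its choice, since the rest was drawn up after the same values. Emx2 and Lhx9 were already on the dorsal pallium and thalamus lists. The mean level of the 12 then measured was 7.72 on mutant 1 and 8.20 on mutant 2, against 8.18 and 8.28 in controls. The 5 were Lhx9, Zic2, Neurod1, Emx2 and Zbtb20, named after their values were seen. Other members did not share the gap: Wnt3a was at 6.55 on mutant 1 and 6.07 on mutant 2, and Fzd9, Wnt2b and Lhx2 lay 0.03, 0.05 and -0.19 from the control mean on mutant 1. None of the list was called between the groups, and the smallest p belonged to Emx2 and to Lef1 (-0.31; limma, adjusted p = 0.373). The part of such cells in the Sst values was not tested.

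Markers of striatum and ganglionic eminence, tissue below the cortex, formed another list. Its levels cannot be weighed against those of the hippocampal list, which was drawn up after low values on mutant 1 had been seen. On the striatal list 12 genes of 14 were measured, with mean levels of 6.82 on mutant 1 and 6.75 on mutant 2, against 6.68 and 6.73 in controls. Of these, 10 were tested, none was called, and 1 was lower on mutant 1 than on mutant 2 by at least 0.5. Ppp1r1b (DARPP-32), of striatal projection neurons and also of some cortical neurons, was at 8.90 and 8.64 in mutants, against 8.32 and 8.19 in controls (difference 0.52; limma, adjusted p = 0.122). Nkx2-1, the factor that defines the medial eminence, and Isl1 are shown as defining markers, chosen after their values were seen. Nkx2-1 was near the level of the filter, at 6.48 and 6.34 in mutants, against 6.42 and 6.52 in controls. Isl1, of striatal precursors, was at 6.26 and 6.23 in mutants, against 6.21 and 6.34 in controls. For Nkx2-1 and Isl1 the groups overlapped. Drd1, on the same list, differed by 0.27 (limma, adjusted p = 0.433), with both mutants above both controls.

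In the remaining marker lists no gene was called. Dorsal pallial genes (7 tested, median 0.04) were led by Emx2, which was 0.70 lower on average (-0.70; limma, adjusted p = 0.363) and low mainly on mutant 1, and by Neurod2 (0.20; limma, adjusted p = 0.370). The choroid plexus transcript Ttr was at 6.50 and 7.17 in mutants, against 6.67 and 9.15 in controls, so control 2 stood apart for it; Folr1 differed by -0.12 (limma, adjusted p = 0.527). The meningeal gene Dcn was at 6.70 and 7.84 in mutants, against 7.84 and 7.81 in controls, low on mutant 1 as Sst was. The other meningeal genes on the list, Col1a1, Col1a2 and Lum (under the filter), had mutant 1 as the highest array. Col1a1 was at 7.71 and 7.57 in mutants, against 7.63 and 7.62 in controls. Col1a2 was at 7.61 and 7.55 in mutants, against 7.53 and 7.46 in controls. The erythroid gene Alas2 differed by -0.23 (limma, adjusted p = 0.236). The microglial genes C1qb and C1qa differed by -0.36 and -0.20 (limma, adjusted p = 0.149 and 0.260), and the thalamic genes Tcf7l2 and Gbx2 by -0.26 and 0.18 (limma, adjusted p = 0.372 and 0.508). The part of these cells in the values of the 9 genes was not tested.

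**Figure D4:**
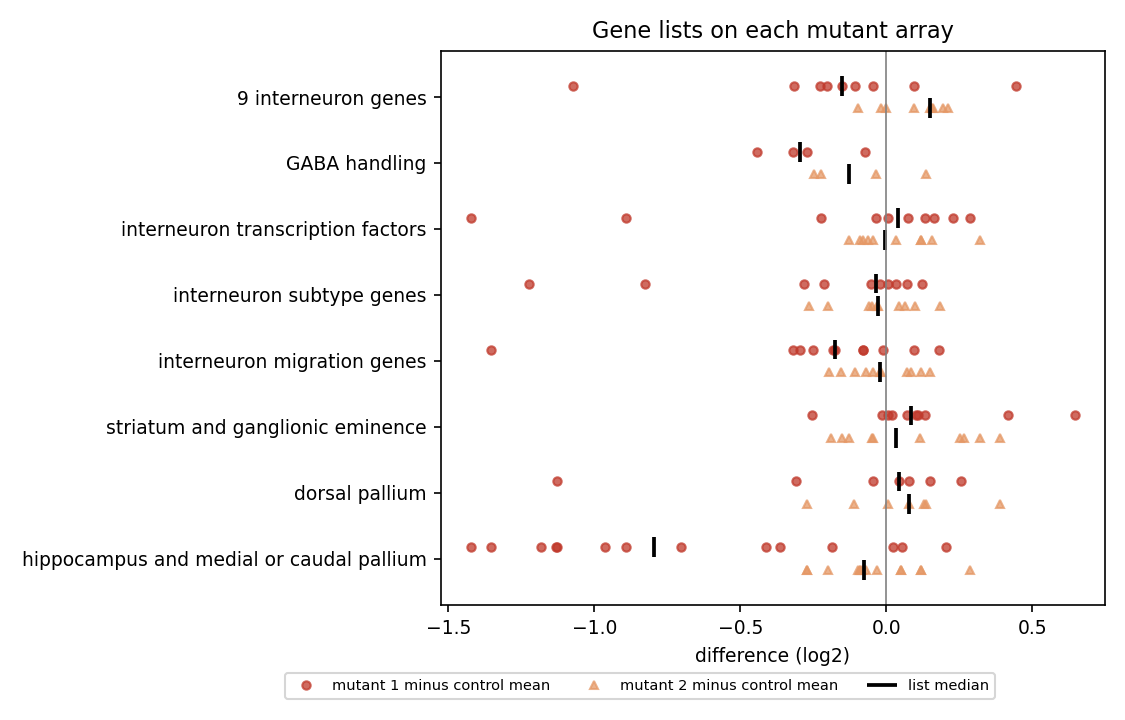
Differences from the control mean (log2) of the genes tested in 8 lists, with circles for mutant 1, triangles for mutant 2 and black ticks for list medians. On mutant 1 the hippocampal, medial and caudal list has its median at -0.80 (-0.41 without Nr2f2, Nrp2 and Prox1) and the 9 interneuron genes at -0.15, and on mutant 2 these medians are -0.08 and 0.15. The hippocampal, medial and caudal list was drawn up after low values on mutant 1 had been seen.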

How the data were processed

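Dorsal cortex RNA of 2 mutant and 2 control samples was measured on single-colour arrays. The deposited log2 values were made by the authors with RMA (background correction, quantile normalization and probe summary), per the submitters' processing notes. The version of RMA, the build and any filters are unstated in these sources, and the log base follows from the spread of values. RMA brings the arrays to similar distributions (array medians 7.11 to 7.13) and compresses folds of dim genes. No detection flags were used, and precision is limited by the number of arrays.

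Of 35557 features, 21789 had 1 gene symbol, 1621 several, and 12147 were unnamed here. Symbols were updated by Entrez identifier (21698 matched, RefSeq GRCm38.p6). The brightest feature per gene was kept (999 genes had several), and genes with a mean under the 30th percentile (6.16) were left out. The test was limma 3.58.1 under R 4.3.3 (lmFit, eBayes, no covariate; 2 residual and 3.31 prior degrees of freedom), two-sided, with Benjamini-Hochberg adjustment over all 13956 genes and 95% intervals without adjustment. With 2 arrays against 2, an exact permutation test of a single gene cannot go below p = 0.333, so none was run. The fit was tested on simulated data.

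The 9 genes, the lists and the alternatives were chosen with earlier results of these data known. All 9 genes are named; of each other list (apart from the hippocampal, medial and caudal one, added later), called genes or else the 2 genes with the smallest p; and the 5 genes most like the mean profile, leaving out predicted genes and olfactory or vomeronasal receptors. Other genes, including the tissue markers Neurod6, Tbr1, Isl1 and Nkx2-1, were named after their values were seen. Of all genes on the lists, 10 have no feature with a single symbol and were not analysed here.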

Additional observations from a re-analysis of the deposited data

How the results depend on the processing

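Over 13 alternatives, 12 left none of the 9 genes called, and the exception was the fit without mutant 2, with 2 (Sst and Npy). Their adjusted p was at or above 0.206 in each of the 9 alternatives that used all 4 arrays. The stricter filter (50th percentile) dropped Dlx6, so 116 of the differences of single genes could be compared. The direction held for 5 genes throughout (Gad2, Dlx1, Dlx2, Lhx6 and Npy). It turned only when a single array was left out, and over these fits Gad1 ran from -0.32 (without mutant 2) to 0.19 (without mutant 1), and Sst from -1.07 (without mutant 2) to 0.21 (without mutant 1). Dlx5 ran from -0.13 (without control 1) to 0.18 (without control 2), with -0.11 without mutant 2, and Dlx6 from -0.045 (without mutant 2) to 0.096 (without mutant 1), with -0.034 without control 1. The median of the 9 differences ran from -0.15 to 0.15 when single arrays were left out, the higher value being that without mutant 1. The number of all genes called was 143; it was 15 without a filter, 238 with a variance trend and 0 when every feature was tested, and ran from 9 (without control 1, and again without control 2) through 262 without mutant 1 to 881 without mutant 2. With fewer arrays the spread comes from the remaining pair; the cause of the other changes was not tested.

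The labels do not say whether the replicate numbers pair the samples. Deviations of same-numbered arrays correlated at -0.158 over the genes tested. Same-numbered arrays differ in sex by Xist, and genes that follow sex enter this value. It therefore cannot decide whether the numbers pair the samples. With the replicate block 116 genes were called and none of the 9. The crossed replicate block, added after seeing the data, put mutant 2 with control 1 and mutant 1 with control 2. By Xist these are the female pair and the male pair, so this block also takes up sex. The main fit had no term for sex. With the crossed block 17 genes were called and none of the 9.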
